A study of Rattus norvegicus with 59 samples.

Results

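The genes described here make, carry and bind vitamin A derivatives. Aldh1a2 encodes a retinaldehyde dehydrogenase, Crabp2 a cytoplasmic retinoic acid binding protein and Rbp4 the plasma carrier of retinol. All probe sets whose only symbol in the array annotation is one of these names were taken, which gave 3 of the 4736 genes named on the array, with 5 of the 8740 probe sets that are not controls: 1 for Aldh1a2, 1 for Crabp2 and 3 for Rbp4. The genes were chosen by their measured signal, high in amygdala, and by the line difference of Aldh1a2, which varied between regions. Their levels by region, and every line difference of Aldh1a2, are therefore given as a description with no test.

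The alcohol-preferring inbred line iP (animals 1 to 6) was set against the non-preferring inbred line iNP (animals 7 to 12), in adult male rats. Both lines were double housed and handled daily, and no alcohol treatment is named in the labels. Amygdala, nucleus accumbens, frontal cortex, striatum and hippocampus of each animal gave 1 Affymetrix array each, 59 in all. For iP animal 6 the cortex array is not analysed here, which leaves 5 iP and 6 iNP cortex arrays. Titles and genotype entries set each animal's line here, because every one of the 59 arrays names iNP in its source name. Each line is inbred, so the animals of a line share a genotype, and a line difference compares these 2 lines only.

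Retinol travels in blood bound to Rbp4 and transthyretin, and cells oxidise it to retinaldehyde and then, through enzymes of the Aldh1a family, to retinoic acid. Retinoic acid moves through the cytoplasm on Crabp proteins and acts through nuclear receptors of the Rar and Rxr families. In rodent brain Aldh1a2 is known above all from the meninges, while transthyretin is made in large amounts by the choroid plexus.

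The regions could be recognised by their markers. Of 6 tested markers of striatal medium spiny neurons, all were higher in striatum and in accumbens than in the mean of the other 4 regions (limma adjusted p under 0.05; 6.27% and 12.3% of all 5244 tested probe sets were higher there). The 4 tested hippocampal markers were higher in hippocampus (10.8% of all tested) and the only tested cortical marker, Pvalb, in cortex (7.86% of all tested). Neither of the 2 tested amygdala markers, Prkcd and Crh, was higher in amygdala (13.3% of all tested), so that tissue was not recognised by its markers. By median correlation 5 of the 59 arrays were nearest to another region, among them amygdala of iP animal 1 (nearest to cortex) and cortex of iP animal 5. On that cortex array Gapdh read 70.6 times as high at its 3′ end as at its 5′ end, against at most 1.36 times on the other 58. The remaining cases lay between amygdala and accumbens, by small margins. Accumbens of iP animal 4 had a median r of 0.9217 with its own region and 0.9227 with amygdala. For iNP animal 7 the amygdala array gave 0.9512 with amygdala and 0.9541 with accumbens. For iNP animal 8 these values were 0.9514 and 0.9516. Amygdala and accumbens were thus not fully separated by this measure. All 5 arrays were kept. Amygdala of iP animal 1 and cortex of iP animal 5 are called here the 2 arrays that stood apart, and some values are also given without them. The median signal of an array was between 251 and 391.

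Because all 3 genes were high in amygdala and accumbens and low in hippocampus, the 250 bases before the annotated start of each are shown, from RefSeq on build GRCr8, on the gene's own strand. They lie at chr8:80758391-80758640 on the plus strand for Aldh1a2, at chr2:175714612-175714861 on the plus strand for Crabp2 and at chr1:245313552-245313801 on the minus strand for Rbp4. Capitals mark the letters TATA.
Aldh1a2: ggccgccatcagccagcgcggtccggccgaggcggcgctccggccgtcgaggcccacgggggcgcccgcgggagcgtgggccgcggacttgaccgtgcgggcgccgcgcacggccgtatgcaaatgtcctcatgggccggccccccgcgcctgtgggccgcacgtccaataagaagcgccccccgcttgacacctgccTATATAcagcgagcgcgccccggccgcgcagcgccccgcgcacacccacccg
Crabp2: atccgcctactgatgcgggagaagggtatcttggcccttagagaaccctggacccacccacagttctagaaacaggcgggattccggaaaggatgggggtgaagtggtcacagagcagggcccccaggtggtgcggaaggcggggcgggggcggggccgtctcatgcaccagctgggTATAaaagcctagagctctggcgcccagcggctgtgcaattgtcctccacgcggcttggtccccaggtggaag
Rbp4: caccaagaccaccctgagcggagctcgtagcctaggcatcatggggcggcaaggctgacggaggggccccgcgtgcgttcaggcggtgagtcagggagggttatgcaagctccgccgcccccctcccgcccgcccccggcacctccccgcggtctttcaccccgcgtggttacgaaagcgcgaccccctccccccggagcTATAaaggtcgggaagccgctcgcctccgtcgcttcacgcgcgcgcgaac

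All 3 windows hold TATA on the gene's strand, as do 36.2% of 33469 rat promoter windows of the same length. The match lies 73 bases before the start in Crabp2 and 50 in Rbp4, and a pair of overlapping matches begins 52 and 50 bases before the start in Aldh1a2. The longer form TATAAA, found in 8.06% of windows, was in those of Crabp2 and Rbp4 and not in that of Aldh1a2. The windows were rich in G and C, with 77.2% in Aldh1a2, 63.2% in Crabp2 and 70.8% in Rbp4, against a median of 51.2% over all windows. CpG pairs numbered 41, 13 and 31 in the same order, against a median of 5. The letters AGGTCA, the variant GGGTCA, the variant AGTTCA and the variant GGTTCA, motifs of the kind that retinoid receptors bind, were searched on both strands and matched in none of the 3 windows, while 39.1% of all windows held at least 1. Direct repeats of these motifs spaced by 1, 2 or 5 bases matched in none of them either (0.651% of all windows).

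Aldh1a2 makes retinoic acid from retinaldehyde. Its signal in amygdala had a lowest, median and highest value of 238, 781 and 1140 in iP and 651, 699 and 966 in iNP. In accumbens the same 3 values were 424, 761 and 866 in iP, against 425, 571 and 699 in iNP. Apart from amygdala of iP animal 1, all arrays of these regions read above 420. In cortex they were 240.2, 458 and 725 in iP and 138, 279 and 421 in iNP. Striatal values were 53.4, 147 and 215 in iP, against 26.5, 141 and 249.6 in iNP. The cortex lay between the high and the low regions, and the lines overlapped in each of these regions.

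In hippocampus Aldh1a2 read 41.8, 27.9, 99.4, 58.4, 21.6 and 29.3 in iP animals 1 to 6. In iNP animals 7 to 12 it read 177, 202, 82.9, 185, 76.4 and 46.6. Of the 6 iP animals, 4 lay below the lowest iNP animal, and the other 2 lay among the iNP values, so the lines overlapped. The deposited values carry no detection calls, so it is not known how many of these low signals stood above background.

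Within animals, Aldh1a2 was higher in amygdala than in hippocampus by 3.39 ± 1.21 (log2, SD, n = 12), in all 12 animals. The order was amygdala, accumbens, cortex, striatum and hippocampus, but neighbours were not equally separated. Amygdala exceeded accumbens by 0.19 ± 0.46 (10 of 12 animals) and striatum exceeded hippocampus by 0.67 ± 1.73 (7 of 12), both less than the spread between animals. Accumbens exceeded cortex by 0.84 ± 0.54 in 11 of 11 animals, and cortex exceeded striatum by 1.72 ± 1.16 in 10 of 11.

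Crabp2 carries retinoic acid in the cytoplasm. In amygdala its lowest, median and highest signals were 360.1, 996 and 1094 in iP and 765, 926 and 1070 in iNP. Accumbens gave 682, 1027 and 1278 in iP, against 607, 868 and 945 in iNP. These regions were again the high ones, and the lines overlapped in both. In cortex Crabp2 read 299.6, 629.8 and 797 in iP and 200.2, 462 and 655 in iNP. The striatal values were 55.2, 234 and 440.4 in iP, against 86.1, 211 and 309 in iNP. In hippocampus they were 45.6, 84.9 and 275 in iP and 44.0, 92.9 and 332 in iNP, a wide spread at a low signal in both lines.

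For Crabp2 accumbens and amygdala could not be ordered: accumbens exceeded amygdala by 0.04 ± 0.50 (log2, SD), in 6 of 12 animals. Amygdala exceeded cortex by 0.87 ± 0.61 in 11 of 11 animals and hippocampus by 3.15 ± 1.21 in all 12. Cortex exceeded striatum by 1.50 ± 1.41 in 9 of 11 animals and striatum exceeded hippocampus by 0.87 ± 1.46 in 9 of 12. The spread of the last difference was larger than the difference itself.

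Rbp4 carries retinol in plasma. On its brightest probe set (M10934_s_at) the lowest, median and highest signals in amygdala were 846, 2447 and 2714 in iP and 1916, 2270.0 and 2909 in iNP. In accumbens they were 1926, 2362 and 2725 in iP, against 1574, 2091 and 2620.0 in iNP. The striatum followed, with 1069, 1187 and 2114 in iP and 919, 1063 and 1877 in iNP. Animals iP 1, iP 2 and iNP 7 read 1813, 2114 and 1877 in striatum, and no other striatal array exceeded 1271. In cortex the values were 675, 934 and 1550.0 in iP (the last from iP animal 5), against 623, 869 and 1261 in iNP. Hippocampus was lowest, at 371, 525.5 and 635 in iP and 478, 536 and 728 in iNP.

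Rbp4 was the only one of the 3 genes in which striatum ranked above cortex, by 0.44 ± 0.66 (log2, SD) in 7 of 11 animals, less than the spread between them. Accumbens and amygdala differed by 0.04 ± 0.52, with accumbens higher in 5 of 12 animals. Amygdala exceeded hippocampus by 2.01 ± 0.63 in all 12 animals. A second Rbp4 probe set (K03045cds_s_at) gave the same order of regions, with amygdala above hippocampus by 1.40 ± 0.59 in 11 of 12 animals, and its log2 signal correlated with that of the first at r = 0.966 over the 59 arrays. The third (K03045cds_r_at) was among the dimmest 40% of probe sets and was not tested. Its signal ran from 65.9 to 193 over all arrays, and amygdala exceeded hippocampus by 0.36 ± 0.52 in 11 of 12 animals. It comes from the same sequence record as the second, so the 3 probe sets are not 3 separate checks.

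**Figure D1:**
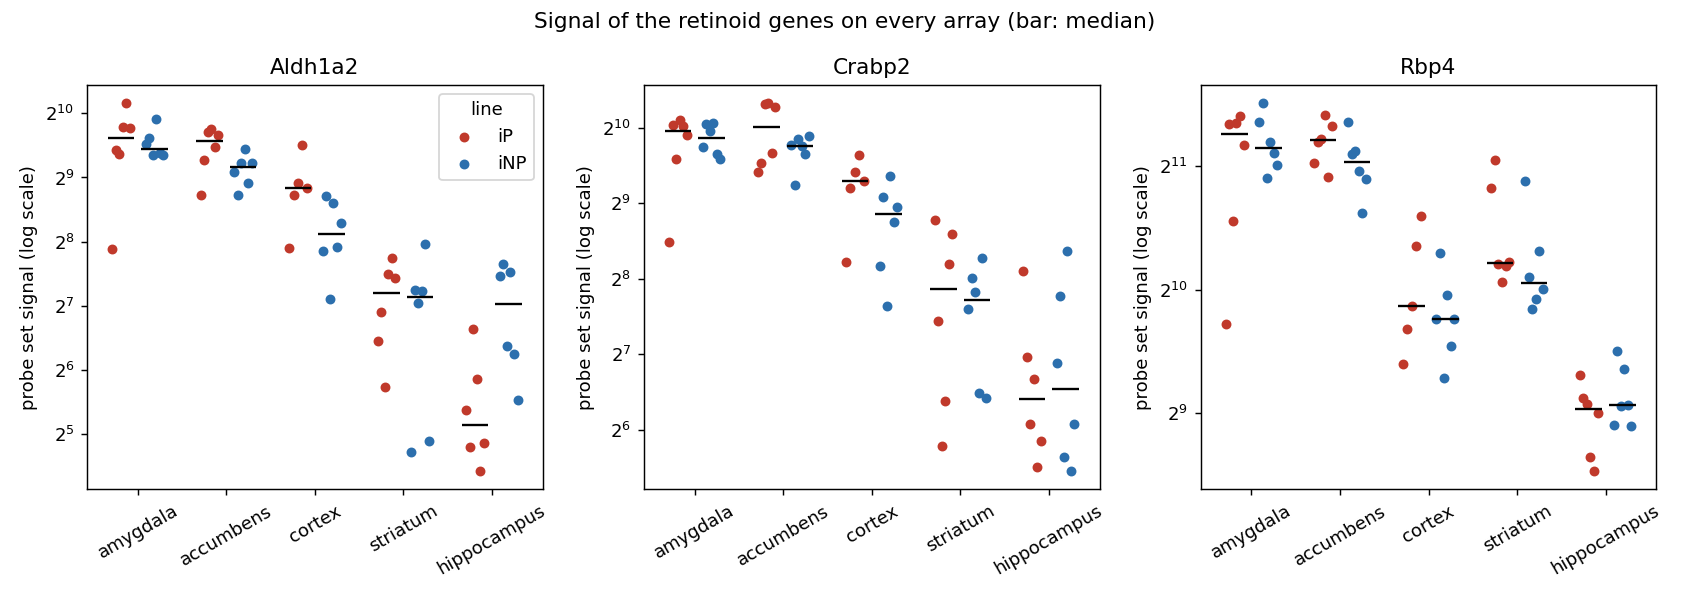
Signal of Aldh1a2, Crabp2 and Rbp4 (brightest probe set) on each of the 59 arrays, on a log axis, by region and line (iP red, iNP blue; bar, median; each point is 1 animal). Amygdala and accumbens are the high regions for all 3 genes and hippocampus is lowest; the lowest amygdala point in each panel is iP animal 1, at 238 for Aldh1a2, 360.1 for Crabp2 and 846 for Rbp4.

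Expressed as each region against the mean of the other 4, Aldh1a2 was higher by 1.84 ± 0.25 in amygdala (log2, SE, limma with the animal as a block) and by 1.60 ± 0.25 in accumbens. Crabp2 was higher by 1.56 ± 0.24 and 1.61 ± 0.24 in the same regions, and Rbp4 by 0.98 ± 0.12 and 1.03 ± 0.12. Without amygdala of iP animal 1 and cortex of iP animal 5, the amygdala differences were 1.95, 1.73 and 1.13. Hippocampus differed by -2.40 for Aldh1a2, -2.37 for Crabp2 and -1.54 for Rbp4. Striatum was lower for Aldh1a2 (-1.56) and Crabp2 (-1.29), while Rbp4 differed there by 0.04. Cortex showed 0.52 for Aldh1a2 and 0.49 for Crabp2, against -0.50 for Rbp4. Without the same 2 arrays the cortex differences were 0.45, 0.39 and -0.62. Region took up 75.7% of the sum of squares of Aldh1a2, 76.5% of that of Crabp2 and 82.6% of that of Rbp4. In bulk tissue, fewer cells of a type and less RNA per cell cannot be told apart.

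The question for the lines was whether these genes differ between rats bred for and against alcohol preference, and whether that depends on the region. Aldh1a2 differed by -1.47 ± 0.54 (iP minus iNP, log2, SE) in hippocampus, with means of 5.33 in iP and 6.80 in iNP. In cortex 4 of 5 iP arrays, that of iP animal 5 among them, lay above the highest iNP array. The difference of Aldh1a2 there was 0.69 ± 0.32, or 0.68 without iP animal 5. It was 0.45 ± 0.57 in striatum, 0.33 ± 0.18 in accumbens and -0.12 ± 0.29 in amygdala, the last becoming 0.18 without iP animal 1. Averaged over the regions of each animal, the difference was -0.03 ± 0.21. Leaving out each animal in turn, the hippocampal difference ran from -1.73 to -1.29 and the cortical one from 0.50 to 0.91, so the sign of neither rested on 1 animal. The striatal difference ran more widely, from 0.09 to 0.73, the accumbens one from 0.25 to 0.47, the amygdala one from -0.27 to 0.18 and that over all regions from -0.15 to 0.11. With signals under 64 set to 64 in place of 16, the hippocampal difference was -0.78, since 5 of 6 iP and 1 of 6 iNP arrays lay under 64 there. The line by region term took up 6.00% of the sum of squares of Aldh1a2 and the line itself 0.0147%. No probe set passed the interaction test over all 5244 (0 calls, 0.0%, limma; 242 at an unadjusted p under 0.05; smallest adjusted p = 0.155), and Aldh1a2, chosen for this pattern, gets no p.

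Crabp2 and Rbp4 did not pass any line test. Over all regions Crabp2 differed by 0.10 ± 0.13 (95% interval -0.17 to 0.37; limma adjusted p = 0.823). Rbp4 differed by 0.04 ± 0.09 (-0.16 to 0.23; adjusted p = 0.918), and its second probe set by 0.08 ± 0.07 (-0.06 to 0.23; adjusted p = 0.692). None of these 3 probe sets was called, beside 2.65% of all tested. The intervals leave room for an average line difference of up to 0.37 for Crabp2 and 0.23 for Rbp4, so no equality of the lines is shown.

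Region by region, Crabp2 differed by 0.50 ± 0.33 in cortex (95% interval -0.21 to 1.21), 0.23 ± 0.18 in accumbens, 0.09 ± 0.51 in striatum, -0.15 ± 0.23 in amygdala and -0.17 ± 0.58 in hippocampus (-1.41 to 1.07). The lowest adjusted p of the 5 was 0.796. Calls over all tested probe sets were 0.229% in cortex, 0.572% in accumbens, 0.839% in striatum, 0.725% in amygdala and 0.667% in hippocampus. Rbp4 ranged from -0.26 ± 0.25 in amygdala to 0.25 ± 0.20 in striatum, with a lowest adjusted p of 0.764, or 0.695 with its second probe set. Without iP animal 1 the amygdala difference was 0.09 for Crabp2 and -0.02 for Rbp4. Without iP animal 5 the cortical difference was 0.46 for Crabp2, and that of Rbp4 was 0.06 in place of 0.21. For all 3 genes the point estimate was above 0 in accumbens, cortex and striatum and below 0 in hippocampus and amygdala. Those of Crabp2 in striatum and hippocampus, and of the second Rbp4 probe set in hippocampus, turned when single animals were left out. In amygdala those of Aldh1a2, Crabp2 and the second Rbp4 probe set turned without iP animal 1. The 3 genes were read on the same arrays, so these signs are not 3 separate observations. Only the estimate of Aldh1a2 in hippocampus exceeded 1 in size. The interaction test gave an adjusted p of 0.978 for Crabp2 and 0.956 for Rbp4 (both tested probe sets).

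**Figure D2:**
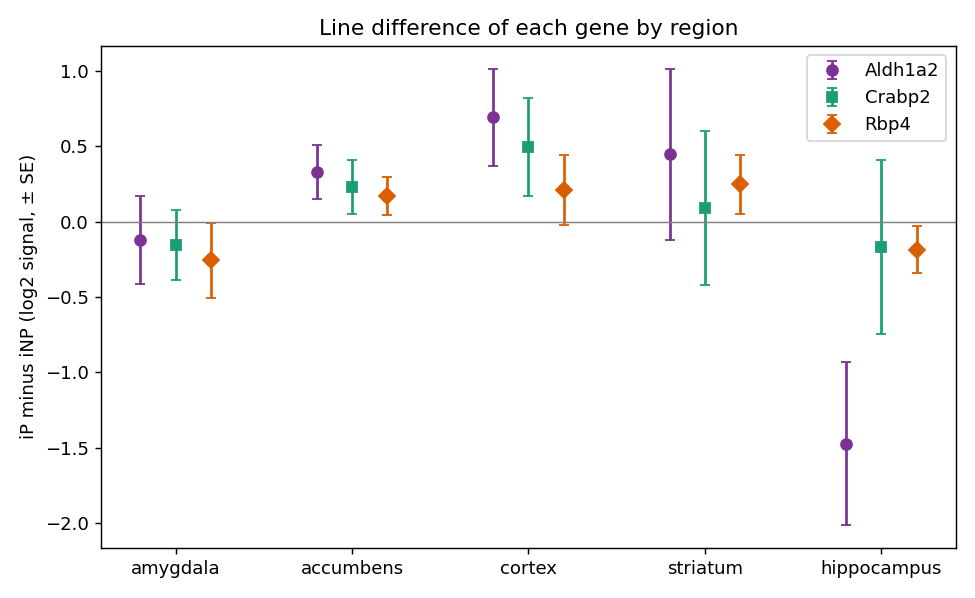
Difference between the lines (iP minus iNP, log2 signal) in each region for Aldh1a2, Crabp2 and Rbp4 (brightest probe set); points are limma estimates and bars are ± 1 SE, from 6 animals per line (5 iP in cortex). Aldh1a2 sits at -1.47 in hippocampus and 0.69 in cortex, while Crabp2 and Rbp4 stay between -0.26 and 0.50.

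Across the 59 arrays, the genes whose log2 signal was most like that of Aldh1a2 were Ptgds (r = 0.908), Anxa2 (0.906), Fmod (0.897), Gjb2 (0.896) and Crabp2 (0.889). Ptgds encodes the lipocalin-type prostaglandin D synthase, Fmod a small proteoglycan of connective tissue and Gjb2 a gap junction protein. Crabp2 had Ptgds (0.943), Gjb2 (0.911), Anxa2 (0.904), Fmod (0.894) and Vim (0.891) nearest to it. The 2 lists share 4 genes. The median r over all tested probe sets was 0.00 with either gene. These arrays share animals and regions, so each r is a description only.

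After each region's mean was subtracted, Anxa2 (0.663), Igf2 (0.658), Igfbp2 (0.648), Fmod (0.632) and Ptgds (0.595) were nearest to Aldh1a2. For Crabp2 they were Ptgds (0.772), Anxa2 (0.687), Vim (0.648), Fmod (0.647) and the second Rbp4 probe set (0.647). Rbp4 had other neighbours: over all arrays Tmem47 (0.886), Gucy1a1 (0.849), Fmo1 (0.846), Rab26 (0.841) and Camk2d (0.835). Within regions they were Pld2 (0.752), Tmem47 (0.713), Vim (0.710), Rps27l (0.700) and Sparc (0.696). Among the tested probe sets most like Rbp4, Crabp2 ranked 15th over all arrays (0.795) and 40th within regions (0.535). Aldh1a2 ranked 36th over all arrays (0.735) and 377th within regions (0.349). The 95th percentile of r with Rbp4 over all tested probe sets was 0.529 over all arrays and 0.410 within regions.

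Markers of the leptomeninges, the thin connective sheets around the brain, were high in amygdala and accumbens and low in hippocampus, as the 3 genes were. Of 22 listed markers 16 were on the array and 13 were tested. In amygdala 11 of the 13 were higher and 0 lower than in the mean of the other regions, beside 13.3% and 12.8% of all tested probe sets. The called ones included the organic anion transporter gene Slc22a6 (1.41 ± 0.23, log2, SE), Ptgds (1.23 ± 0.15), the growth factor gene Igf2 (1.13 ± 0.17), the collagen genes Col1a1 (1.13 ± 0.22) and Col1a2 (1.01), the GABA transporter gene Slc6a13 (1.09), Igfbp2 (0.98) and Fmod (0.43). Dcn (0.50, adjusted p = 0.131) and Col3a1 (0.20, adjusted p = 0.198) did not pass. In accumbens all 13 were higher and 0 lower, beside 12.3% and 8.58% of all tested. In hippocampus 12 were lower and 0 higher (12.5% of all tested lower), and in striatum likewise 12 lower and 0 higher (7.65% lower). In cortex only Col3a1 was higher (0.36) and none was lower. These counts were the same without the 2 arrays that stood apart. Rbp4 differed from the markers in striatum, where it stood at 0.04, and in cortex, where it stood at -0.50 and the median of the markers at 0.07.

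Markers of other cell types also differed in amygdala. All 3 tested neuronal markers were lower (median -0.45), as were all 4 tested oligodendrocyte markers (median -0.83), while 0 of 6 vascular markers were called and 1 of 4 astrocyte markers was higher and 1 lower. In accumbens 3 of the 4 oligodendrocyte markers were higher and 2 of the 3 neuronal markers and 1 astrocyte marker lower, and 2 of the 6 vascular markers, the smooth muscle genes Acta2 (1.15) and Tagln (0.93), were higher. In hippocampus all 4 oligodendrocyte markers, 1 neuronal marker and 1 astrocyte marker were higher, and the same 2 vascular markers were lower (-0.73 for Acta2 and -0.37 for Tagln). Of all tested probe sets, 13.3% were higher and 12.8% lower in amygdala, 12.3% and 8.58% in accumbens, and 10.8% and 12.5% in hippocampus. In lists this short, a single call says little about a cell type. The part of these cell types in the region differences was not tested.

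The median difference over the 13 leptomeningeal markers was 0.98 in amygdala, beside 0.01 over all tested probe sets, and 0.91 in accumbens, beside 0.02. It was -0.82 in hippocampus and -1.09 in striatum, beside 0.01 and -0.01. The summed signal of the list ran from 30107 to 54103 in amygdala of iP and from 44360 to 59059 in amygdala of iNP. It ran from 47204 to 60768 and from 41820 to 57029 in accumbens of iP and iNP, and from 10117 to 15909 and from 11547 to 26824 in hippocampus of iP and iNP. The lowest amygdala sum belonged to iP animal 1, the array with the lowest Aldh1a2. The labels do not say whether the leptomeninges were removed, and the part of these cells in the region differences of the 3 genes was not tested.

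Between the lines, at most 1 of the 13 leptomeningeal markers was called over all regions or in any single region. Over all regions 0 were higher and 1 was lower, Fn1, which encodes fibronectin (-0.55 ± 0.06, adjusted p = 8.7e-05), beside 1.20% and 1.45% of all tested probe sets. In hippocampus Fn1 was again the only call (-0.75, adjusted p = 0.00065; 0.458% of all tested were lower), and the median over the 13 markers was -0.34, beside 0.00 over all tested. Their mean log2 signal there was 9.12 ± 0.21 in iP and 9.34 ± 0.34 in iNP (SD, n = 6 each), a difference of -0.22 beside the -1.47 of Aldh1a2. In cortex it was 10.18 ± 0.40 in iP and 9.97 ± 0.35 in iNP, a difference of 0.21 beside 0.69. The marker mean differed by 0.17 in striatum, 0.17 in accumbens and -0.15 in amygdala, beside 0.45, 0.33 and -0.12 for Aldh1a2. The signs were thus the same in all 5 regions, but that of Aldh1a2 in amygdala turned without iP animal 1 (0.18). The part of these markers in the line difference of Aldh1a2 was not tested.

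**Figure D3:**
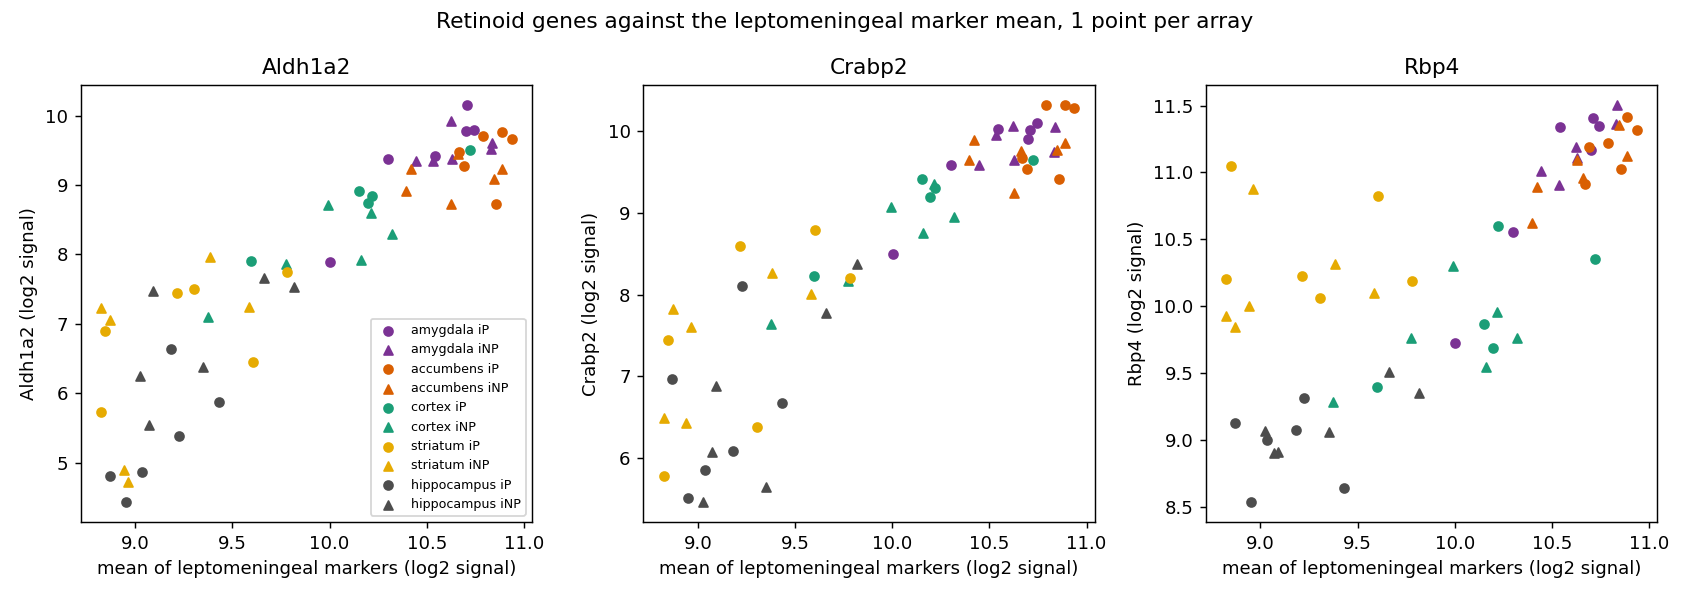
Log2 signal of Aldh1a2, Crabp2 and Rbp4 (brightest probe set) against the mean log2 signal of the 13 tested leptomeningeal markers; each point is 1 of the 59 arrays, coloured by region, with circles for iP and triangles for iNP. Aldh1a2 and Crabp2 are lowest where the marker mean is near 9 and highest where it is above 10, whereas the striatal points of Rbp4 (yellow) lie above the trend of the other regions.

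Whether the genes also moved together from animal to animal was tested inside each region, after subtracting each line's mean (45 relations, permutations within lines, Benjamini-Hochberg adjustment over all 45). A relation is said to pass by its r. Aldh1a2 and Crabp2 were positively related in 5 of 5 regions and passed in 3. In cortex r was 0.950 (permutation adjusted p = 0.0018) and rho 0.964 (permutation adjusted p = 0.0081), n = 11 animals. Without the 2 animals farthest from the median of Aldh1a2, r was 0.833. In accumbens r was 0.856 (permutation adjusted p = 0.0063) and rho 0.811 (permutation adjusted p = 0.0317), n = 12, and without the 2 farthest animals r was 0.746. In amygdala r was 0.923 (permutation adjusted p = 0.0282) and rho 0.825 (permutation adjusted p = 0.0313), n = 12. Without iP animal 1, r fell to 0.595 (permutation adjusted p = 0.160). Without the 2 farthest animals, r was 0.711 (unadjusted permutation p = 0.0307). The call was also lost without iP 3, iP 4 or iNP 10, with r at 0.925, 0.921 and 0.922 (permutation adjusted p up to 0.0852). The amygdala call thus depended on single animals. Striatum (r = 0.388) and hippocampus (r = 0.529) did not pass.

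Rbp4 followed Aldh1a2 less regularly, with r from -0.378 in striatum to 0.889 in amygdala. The relation passed in cortex (r = 0.804) and amygdala. In cortex r was 0.612 without the 2 animals farthest from the median of Aldh1a2 (unadjusted permutation p = 0.0969), and 0.941 without iP animal 5 (permutation adjusted p = 0.0147). In amygdala r was 0.573 without the 2 farthest animals (unadjusted permutation p = 0.0910) and 0.574 without iP animal 1 (permutation adjusted p = 0.222). By r, Crabp2 and Rbp4 passed only in amygdala (r = 0.914, or 0.673 without iP animal 1, permutation adjusted p = 0.120). Their cortical relation depended on the measure, with r = 0.712 (permutation adjusted p = 0.0521) and rho = 0.755 (permutation adjusted p = 0.0395).

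Against the leptomeningeal marker mean, each of the 3 genes passed in 2 regions. By r, Aldh1a2 and Crabp2 did not pass in accumbens (r = 0.16 and 0.28), striatum (0.45 and 0.63) or hippocampus (0.66 and 0.65). The hippocampal relation of Aldh1a2 depended on the measure: rho was 0.755 (permutation adjusted p = 0.0402), while r had a permutation adjusted p of 0.097. Rbp4 did not pass in striatum (-0.05), hippocampus (0.44) or cortex (0.62). In cortex r was 0.876 for Aldh1a2 and 0.900 for Crabp2 (permutation adjusted p = 0.0282 and 0.00934), and 0.611 and 0.672 without the 2 farthest animals. In amygdala r was 0.839 for Aldh1a2 and 0.835 for Crabp2, and 0.605 and 0.595 without iP animal 1 (permutation adjusted p = 0.160 for both). Rbp4 passed in amygdala (r = 0.941, permutation adjusted p = 0.0063; r = 0.879, permutation adjusted p = 0.0260 without iP animal 1) and in accumbens (r = 0.784, permutation adjusted p = 0.0282; r = 0.619 without the 2 farthest animals). The accumbens call was lost without any 1 of 5 animals (iP 3, 4 or 5, or iNP 7 or 11; permutation adjusted p up to 0.0824). Of the 12 relations that passed, 3 passed whichever animal was left out: Aldh1a2 with Crabp2 in cortex and in accumbens, and Rbp4 with the leptomeningeal mean in amygdala. The other 9 did not pass without at least 1 animal. With a choroid plexus marker mean, 0 of 15 relations passed, at r from -0.445 to 0.654. In hippocampus the summed choroid plexus signal ran from 2946 to 40840 in iP and from 4303 to 64969 in iNP, and its marker mean gave r = 0.480 with Aldh1a2, 0.300 with Crabp2 and 0.238 with Rbp4.

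The other genes of the retinoid pathway were compared in the same way. Of 37 other listed genes for retinoid synthesis, transport, reception and breakdown or known as targets of retinoic acid, 16 were on the array and 8 were tested. In amygdala 1 was higher, Aldh1a1 (0.42 ± 0.07), and 2 were lower, Ttr (-0.94 ± 0.34) and Crabp1 (-0.35 ± 0.13). The median over the 8 was -0.16, and 13.3% of all tested probe sets were higher and 12.8% lower there. In accumbens 3 were higher and 0 lower: Rxrg (0.87), Crabp1 (0.65) and Aldh1a1 (0.19), beside 12.3% and 8.58% of all tested. In hippocampus 3 were higher and 2 lower, beside 10.8% and 12.5% of all tested. In striatum 2 were higher and 2 lower, beside 6.27% and 7.65%. With 8 genes tested, a single call is 12.5% of the list, so the amygdala count of higher genes is at the share of all probe sets. Cortex had 0 higher and 2 lower, Ttr (-1.71) and Rxrg (-1.09), beside 9.19% of all tested lower. The Ttr differences in amygdala and cortex were set against a mean that holds its very high hippocampal signal. Its mean log2 signal was 12.56 in hippocampus, 8.49 in accumbens, 8.29 in amygdala, 8.19 in striatum and 7.73 in cortex. For Ttr, amygdala thus lay above striatum and cortex.

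By role, another enzyme of the same family, Aldh1a1, was lower in striatum (-0.90) and higher in hippocampus (0.35), where Aldh1a2 was lowest. Among the carriers, Ttr, which binds Rbp4 in plasma, was higher in hippocampus by 4.40 ± 0.34, with signals from 621 to 47840.0 there and at most 449 elsewhere. Crabp1, the relative of Crabp2, was higher in striatum (0.76) and lower in hippocampus (-0.72), while Fabp5, a fatty acid binding protein that can also carry retinoic acid, was higher in hippocampus (0.23). Among the receptors, Rxrg was higher in striatum (1.06) and lower in hippocampus (-0.87). Rara and Rxrb did not pass in any region on their brightest probe sets. A second Rara probe set did pass in amygdala (-0.53, adjusted p = 0.0106), where the brightest gave -0.19 (adjusted p = 0.0864). Rdh16, listed with the enzymes of retinol oxidation, was -0.23 in amygdala and did not pass in any region. The genes on the array that were too dim to test were Rdh7, Rdh10, Adh4, Adh7, Rbp2, Rarb, Rxra and Cyp26b1.

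**Figure D4:**
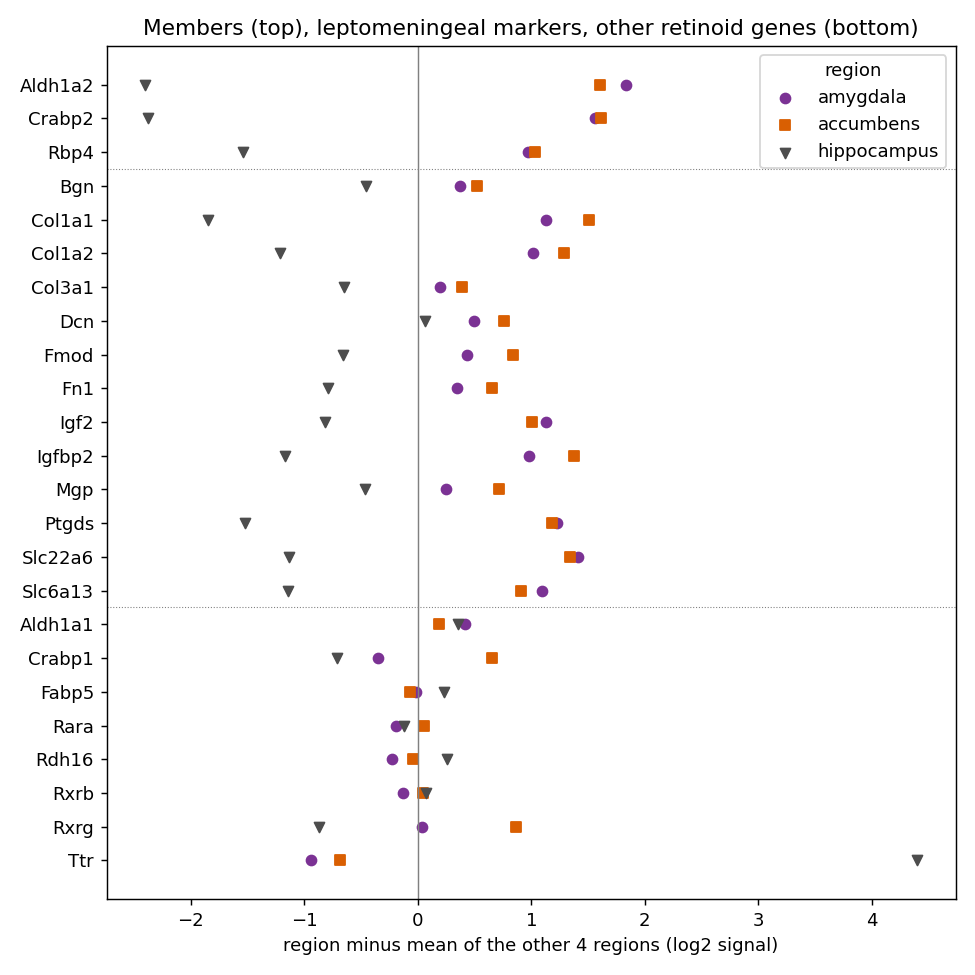
Difference of amygdala (circles), accumbens (squares) and hippocampus (triangles) from the mean of the other 4 regions, in log2 signal, for Aldh1a2, Crabp2 and Rbp4 (top), the 13 tested leptomeningeal markers (middle) and the 8 other tested retinoid genes (bottom). The top genes and most markers lie right of 0 in amygdala and accumbens and left of 0 in hippocampus, while Ttr lies at 4.40 in hippocampus.

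Between the lines, 1 of the 8 other retinoid genes was called over all regions, where it was higher, beside 2.65% of all tested called and 1.20% higher. Aldh1a1, which also makes retinoic acid, was higher in iP animals by a log2 difference of 0.31 ± 0.06 (SE, 6 animals a line; limma adjusted p = 0.0146). In striatum its lowest, median and highest signals were 1081, 1185 and 1553 in iP and 722, 822 and 989 in iNP. That difference was 0.55 ± 0.11 (adjusted p = 0.0248), beside 0.839% of all tested called in striatum. In hippocampus the same values were 2024, 2118 and 2713 in iP, against 1592, 1711 and 2360.0 in iNP, and in that region none of the 8 genes was called. The striatal call was lost without any 1 of 6 of the 12 animals (iP 1 or 5, or iNP 7, 8, 9 or 12; adjusted p up to 0.0741), while the difference stayed between 0.48 and 0.60. The other 7 did not pass over all regions and lay between -0.18 (Rxrg) and 0.22 (Rdh16). Ttr differed by 0.03 ± 0.26 and Crabp1 by 0.03 ± 0.07.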

How the data were processed

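Total RNA of each brain region of each rat was labelled with biotin and hybridised to its own array, per the labels. The deposited values are an intensity per probe set on a linear scale; the program and settings behind them are not given in the sources used here. Every array had a 2% trimmed mean of 1000.0, so the authors' scaling was kept. Signals under 16 were set to 16 and log2 transformed. The 59 control probe sets and the 40% dimmest of the other 8740 were left out, which left 5244 tested; 4 of the 5 probe sets described were among them. Symbols came from the array annotation (7006 probe sets with 1 symbol, 6985 matched by gene ID to the RefSeq table, 0 changed).

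Lines and regions were compared with limma 3.58.1 in R 4.3.3 (moderated, variance trend, two-sided, Benjamini-Hochberg over all 5244, calls under 0.05). Line differences used 1 value per animal, or each region alone. Interaction and region tests had the animal as a fixed block, since the animal numbers in the titles join the regions of 1 rat. Correlations used 100000 permutations within lines (scipy 1.17.1). The brightest tested probe set stands for a gene. The fits were checked on simulated arrays with known changes; the interaction test and the test of a single region missed most changes of the smallest size simulated, so a missing call there does not show that the lines are alike.

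The members, gene lists, tests and alternatives were chosen with earlier results of these data known. All probe sets of the 3 genes, every other listed retinoid gene that was called with up to 4 uncalled ones per list, the 5 nearest genes by correlation and up to 8 called markers are named; Dcn and Col3a1, Fn1 and the second Rara probe set were named after their values were seen. Precision is limited by the number of animals, since an array has no read depth.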

Additional observations from a re-analysis of the deposited data

Results flagged for a closer look

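In 50 tests of single arrays within a region and line, 5 lay far from the others of their group, and chance gives about 1 in 20. In amygdala, iP animal 1 was far below the other 5 iP animals for 4 of the 5 probe sets. Its signal was 237.7 for Aldh1a2 (next lowest 661), 360.1 for Crabp2 (next lowest 765), 588.6 for the second Rbp4 probe set (next lowest 1224) and 70.55 for the third (next lowest 129). The same array was nearest to cortex by correlation, and the lowest values of 4 probe sets on it are 1 observation, not 4. In accumbens, Crabp2 of iNP animal 8 was 606.8, where the next lowest iNP animal read 801.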

How the results depend on the processing

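Every alternative kept the sign of each region difference of the 3 genes, apart from Rbp4 in striatum, which lay near 0 and turned without iP animal 1 or 2 or, on the brightest probe set, iNP animal 7. The difference of Aldh1a2 over all regions also lay near 0 and turned with the floor of 64 and without iP animal 1 or iNP animal 8 or 10. With quantile normalization 1 of the 8 other retinoid genes was lower in amygdala, against 2. Without amygdala of iP animal 1 and cortex of iP animal 5, the amygdala line difference turned to 0.085 for Crabp2 and to 0.0352 for the second Rbp4 probe set, and the amygdala relation of Aldh1a2 to Crabp2 was 0.595. Calls between the lines then numbered 24 in cortex, against 12. With the animal as a random replicate block in 1 fit, calls were 56 in cortex, 59 in amygdala and 51 in accumbens, against 12, 38 and 30, and Crabp2 and Rbp4 were still not called. With no replicate block, the interaction test made 0 calls. With the lowest 60% left out, accumbens calls were 19, and Aldh1a2 and Crabp2 fell below the filter and gave no value. With line means kept, the striatal relation of Rbp4 to the marker mean was 0.0332. Some relations passed only in an alternative. Aldh1a2 with the marker mean passed in hippocampus with line means kept (0.711) and without iNP animal 7 (0.809), at permutation adjusted p up to 0.0322. Crabp2 with Rbp4 passed in cortex with line means kept (0.735) and with quantile normalization (0.752). It also passed there without iNP animal 11 (0.739, permutation adjusted p = 0.0497). With quantile normalization it passed in hippocampus (0.714, permutation adjusted p = 0.0380). Leaving out each animal in turn, calls ran from 9 to 24 in cortex, 22 to 51 in amygdala and 19 to 37 in accumbens, and the amygdala relation of Aldh1a2 to Crabp2 from 0.595 to 0.953. The line difference over all regions ran from -0.00468 to 0.0852 for Rbp4. Differences near 0 changed sign: in striatum Crabp2 ran from -0.16 to 0.44; in hippocampus Crabp2 ran from -0.484 to 0.164 and the second Rbp4 probe set from -0.145 to 0.0092; in amygdala they ran from -0.236 to 0.085 and from -0.278 to 0.0352; and the striatal relation of Rbp4 to the marker mean ran from -0.197 to 0.224. The causes were not tested. Without detection calls, the low hippocampal signals limit what can be said of Aldh1a2 there.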
